A study of Cynoglossus semilaevis with 6 samples.

Results

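The genes described here peaked in one liver library, LS_L_1, the first of the 3 pools from half-smooth tongue sole (Cynoglossus semilaevis, a flatfish) held in dilute sea water. They were selected on their values in the deposited table of RPKM, the reads on a feature scaled by its length and by the reads of the library. A gene was a member if it had at least 3 RPKM in LS_L_1, at least 2 times its highest RPKM in the other 5 libraries, and a mean over the 6 libraries under 500 RPKM. Only features with an XM identifier (predicted messenger RNAs) that lie outside the sex chromosomes W and Z were considered. By this rule 209 of 34751 features were members, out of 29992 XM features outside W and Z. Since LS_L_1 chose them, the level of a member in LS_L_1 and its ratio to the other libraries are given as a description, without a test.

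All fish were females, reared for 10 months before the salinity trial began. The LS_L group was kept at 15 ppt salinity and the HS_L group at 30 ppt, each for 60 days in 3 tanks. The 15 ppt water was reached stepwise. Each library is the RNA of livers pooled from 3 fish of 1 tank, so LS_L_1 stands for 1 tank and 3 fish, and a difference of the tank, of a single fish in the pool and of the preparation of that library cannot be told apart. The libraries held 17313983 reads in LS_L_1, and 18439596 and 19428741 reads in LS_L_2 and LS_L_3, against 16176690, 19149666 and 18171343 reads in HS_L_1, HS_L_2 and HS_L_3. These totals were recovered from the RPKM values, of which 99.7% came out as whole reads within a tolerance of 0.01.

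Fish liver consists mainly of hepatocytes, which secrete plasma proteins, store lipid and glycogen and make bile. It also holds endothelial cells, bile duct cells, stromal cells, blood, resident macrophages and other leukocytes. Myeloid cells (macrophages and granulocytes) are built under the control of the transcription factor PU.1, and macrophages depend on the receptor for colony stimulating factor 1. Myeloid cells sense microbial products through Toll-like receptors, which act through NF-kappa-B to switch on chemokines, cytokines and their own inhibitors. Among the 209 members, 110 had a gene symbol, 91 were known only by a LOC number and 8 had no name. The symbols were taken from RefSeq by accession for 141 named members and by position for 60, and those named by position are marked so at their first mention.

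By the same rule, 3 genes peaked in LS_L_2 and 1 in LS_L_3, against 88 in HS_L_1, 181 in HS_L_2 and 23 in HS_L_3. LS_L_1 and HS_L_2 therefore each had a large set of genes that stood above all other libraries, and the other LS_L pools had almost none. RPKM values of LS_L_1 and HS_L_1 tended to be higher than those of the other libraries across all features. LS_L_1 was the highest of the 6 libraries for 42.9% of 9343 features with a mean of at least 1 RPKM, and for 23.4% of them after scaling by size factors. This scaling multiplied RPKM by factors from the median of ratios. The factors were 0.796 for LS_L_1, 1.02 for LS_L_2 and 1.24 for LS_L_3, against 0.820 for HS_L_1, 1.13 for HS_L_2 and 1.07 for HS_L_3. The scaling left 127 genes peaking in LS_L_1. All of them were members, which could not be otherwise because LS_L_1 had the smallest factor. It gave 3 and 1 genes for LS_L_2 and LS_L_3, against 41, 271 and 30 for HS_L_1, HS_L_2 and HS_L_3. LS_L_1 remained the highest of the 6 libraries for all 209 members after scaling. This was fixed in advance by the member ratio of at least 2 and by these factors. A ratio of at least 2 was kept by 138 members.

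**Figure D1:**
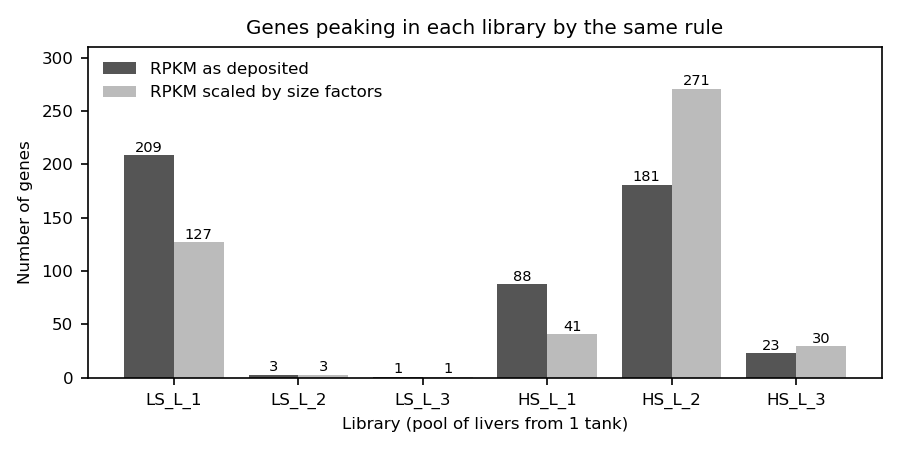
Number of genes that peaked in each library by the same rule, on RPKM as deposited (dark bars) and on RPKM scaled by size factors (light bars). LS_L_1 had 209 and 127 genes, LS_L_2 and LS_L_3 had 3 and 1 on both scales, and HS_L_2 had 181 and 271.

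The median ratio of LS_L_1 to the highest other library was 2.58 over the 209 members, with a range of 2.00 to 106.2 by RPKM. It was 2.21 after scaling, with a range of 1.30 to 82.7. A ratio of at least 5 was seen for 19 members and one of at least 3 for 76, while 97 lay under 2.5. Levels in LS_L_1 were mostly low or moderate, with 91 members under 10 RPKM, 97 between 10 and 100 RPKM and 21 at 100 RPKM or more. The median member had 13.0 RPKM in LS_L_1, and 2.37 and 2.06 RPKM in LS_L_2 and LS_L_3, against 3.64, 1.71 and 2.56 RPKM in HS_L_1, HS_L_2 and HS_L_3. All members together took 1.40% of the reads assigned to features in LS_L_1, and 0.338% and 0.315% in LS_L_2 and LS_L_3. In the HS_L libraries they took 0.472%, 0.297% and 0.353%. Depth in LS_L_1 was 28 to 15486 reads per member with a median of 370.0 reads, and 25 members had fewer than 100 reads there.

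Just inside the fold of 2 stood 15 members with a ratio under 2.05, among them ppargc1b with a ratio of 2.05 (5.31 RPKM in LS_L_1, against 2.60 RPKM in HS_L_1). Just outside stood 18 genes with a ratio from 1.95 to 2, including the immunoproteasome subunit psmb9a with a ratio of 1.97 (133.6 RPKM in LS_L_1, against 67.9 RPKM in HS_L_3). These genes were picked for their place at the threshold. The limit on the mean kept out 5 genes with a ratio over 2. Among them were LOC103395908 and LOC103378371, which are given no role here. They had 1937.5 and 1810 RPKM in LS_L_1, with ratios of 4.21 and 2.07. Lysozyme (lyz), an antibacterial enzyme of myeloid cells, had 2895 RPKM in LS_L_1, and 315.6 and 310.6 RPKM in LS_L_2 and LS_L_3, against 593.7, 97.8 and 267.2 RPKM in HS_L_1, HS_L_2 and HS_L_3. Hepcidin (hamp), the liver peptide that restricts iron release and has antimicrobial activity, had 7981 RPKM in LS_L_1, and 800.9 and 1149 RPKM in LS_L_2 and LS_L_3, against 2419, 1065 and 1158 RPKM in the HS_L libraries. The invariant chain of the class II antigen complex (cd74a) had 1627 RPKM in LS_L_1, against at most 748.0 RPKM elsewhere, in HS_L_1.

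The steepest peak was that of c9h17orf67 (XM_008317672.1, chromosome 9), whose role is not annotated here. It had 220.1 RPKM in LS_L_1, and 2.07 and 0.725 RPKM in LS_L_2 and LS_L_3, against 0.995, 1.47 and 0.775 RPKM in HS_L_1, HS_L_2 and HS_L_3. LS_L_1 was thus 106.2 times the next library (95% interval from read counting 67.8 to 166.2, Wilson method), and the other 5 pools lay close together at a low level. Such intervals cover counting error only, since reads from amplified libraries without molecular identifiers are not independent molecules. The neighbouring member LOC103384237, 11986 bases away and on the other strand, had a much smaller ratio of 4.30. It was chosen for its position after its values were seen.

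On chromosome 15, LOC103391029 and LOC103391030 lie 4720 bases apart on the same strand. LOC103391029 had 901.2 RPKM in LS_L_1, and 6.92 and 6.84 RPKM in LS_L_2 and LS_L_3, against 20.3, 3.70 and 4.10 RPKM in the HS_L libraries. LOC103391030 had 10.3 RPKM in LS_L_1, and 0.0849 and 0.0403 RPKM in LS_L_2 and LS_L_3, against 0.290, 0 and 0.301 RPKM in the HS_L libraries. LS_L_1 was thus 44.4 and 34.3 times the next library for this pair, although the level of LOC103391030 was low in all pools. Each overlaps a feature on the opposite strand, and the strand setting of the counting is not given in the sources used here.

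Next came LOC103383163 on chromosome 9, with 9.32 RPKM in LS_L_1 against 0.10 to 0.63 RPKM elsewhere, and sox10 on chromosome 17. Sox10 is a transcription factor of the neural crest, needed for glia and pigment cells. It had 11.2 RPKM in LS_L_1, and 0.192 and 0.182 RPKM in LS_L_2 and LS_L_3, against 0.481, 0.357 and 0.882 RPKM in HS_L_1, HS_L_2 and HS_L_3. The 821 reads in LS_L_1 gave a ratio of 12.7 (95% interval 9.90 to 16.2) to HS_L_3, which was the next. The sox10 feature overlaps 2 other features on its strand. Of the 22 symbols in the list of nervous and endocrine markers, 18 were matched. Counted by gene, with copies such as plp1a and plp1b apart, 17 matched genes stayed under 1 RPKM in every library. They include gfap, mbpa, plp1a and plp1b, which are glial and myelin genes. In this list 3 features had a mean of at least 1 RPKM.

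XM_008337141.1, annotated as a gene for a cocaine- and amphetamine-regulated transcript protein-like neuropeptide precursor, lies on an unplaced scaffold. It had 217.9 RPKM in LS_L_1, and 35.7 and 43.7 RPKM in LS_L_2 and LS_L_3, against 27.1, 6.80 and 16.8 RPKM in HS_L_1, HS_L_2 and HS_L_3. All LS_L pools were above all HS_L pools. The study, which used a count test with LS_L_1 included, listed this transcript among its genes up-regulated at low salinity. XM_008330162.1, which has no name, had 14.5 RPKM in LS_L_1 against 0.75 to 1.74 RPKM in the other 5 libraries.

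Among the other 30 members with the highest ratios, nppc (C-type natriuretic peptide, a vasoactive hormone) had 4.38 RPKM in LS_L_1 against 0.13 to 0.53 RPKM elsewhere, and olfm4.1 (olfactomedin 4, a granule protein of neutrophils in mammals) had 3.83 RPKM against 0 to 0.47 RPKM. Cmtm3, which encodes a membrane protein of the MARVEL family, stood at 24.5 RPKM against 1.28 to 3.25 RPKM. LOC103383986 was at 23.2 RPKM in LS_L_1, and 0.0751 and 0.0356 RPKM in LS_L_2 and LS_L_3, against 3.47, 1.30 and 0.0191 RPKM in the HS_L libraries. It is an example of a member with a clear second peak in HS_L_1. The rest of the 30 had ratios of 4.34 for fez2a up to 8.67 for LOC103389535. They include zdhhc2 (a palmitoyltransferase), sync (syncoilin, of muscle intermediate filaments), and, named by position, epb41l3a (a membrane skeleton protein) and cemip (which degrades hyaluronan), besides LOC103393621, LOC103377666, LOC103395935, LOC103391003, LOC103386249 and, by position, LOC103381755 and LOC112488690.

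**Figure D2:**
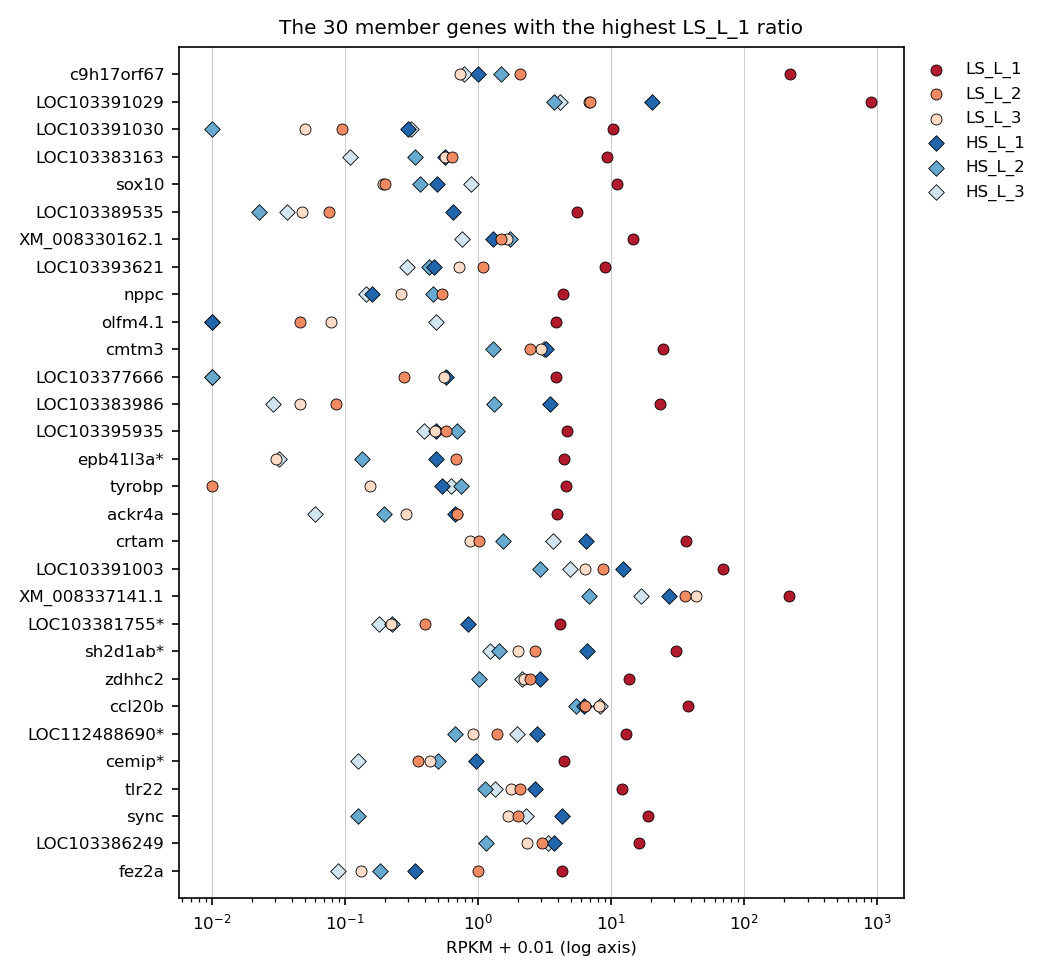
RPKM (plus 0.01, log axis) of the 30 members with the highest ratio of LS_L_1 to the next library, 1 point per library (circles, LS_L; diamonds, HS_L); an asterisk marks a name taken by position. LS_L_1 lies right of all other libraries by construction, from 4.34 times for fez2a to 106.2 times for c9h17orf67.

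The members with symbols were grouped by the known role of the gene after their values had been seen, and 73 of them fell into 9 such groups. The group of leukocyte receptors and adaptors held 14 members with a median ratio of 3.52, of which 13 kept a ratio of at least 2 after scaling. Their summed level was 221.2 RPKM in LS_L_1, and 41.9 and 37.0 RPKM in LS_L_2 and LS_L_3, against 68.0, 35.1 and 46.6 RPKM in HS_L_1, HS_L_2 and HS_L_3. HS_L_1 was the second highest library by RPKM for 11 of the 14. It was the highest of the 5 libraries other than LS_L_1 for 48.6% of all features tested.

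Crtam, an immunoglobulin superfamily receptor of activated T and NK cells in mammals, had the highest level of this group after il22ra2 (by position). It had 36.5 RPKM in LS_L_1, and 1.01 and 0.861 RPKM in LS_L_2 and LS_L_3, against 6.45, 1.54 and 3.66 RPKM in the HS_L libraries. Tyrobp, the signalling adaptor of myeloid and NK cell receptors, had 4.57 RPKM in LS_L_1, and 0 and 0.145 RPKM in LS_L_2 and LS_L_3, against 0.524, 0.738 and 0.622 RPKM in the HS_L libraries. This peak rests on 28 reads, the fewest of any member, and its ratio of 6.19 has a 95% interval of 2.47 to 15.5. Csf1ra (by position), the receptor for colony stimulating factor 1, had 17.0 RPKM in LS_L_1, and 3.28 and 3.33 RPKM in LS_L_2 and LS_L_3, against 6.48, 1.65 and 4.82 RPKM in the HS_L libraries. Here the order of the libraries was LS_L_1, HS_L_1, HS_L_3, LS_L_3, LS_L_2 and HS_L_2, so the salinity groups overlapped.

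The Toll-like receptors tlr22 (a receptor of double-stranded RNA in pufferfish) and tlr9 (a receptor of unmethylated DNA) were both members. Tlr22 had 12.1 RPKM in LS_L_1, and 2.06 and 1.77 RPKM in LS_L_2 and LS_L_3, against 2.69, 1.13 and 1.34 RPKM in the HS_L libraries. Tlr9 reached only 3.83 RPKM in LS_L_1, against 1.83 RPKM in HS_L_1, the next. Tnfrsf1b (by position), a receptor of tumour necrosis factor, had 8.99 RPKM in LS_L_1 and 0.85 to 2.66 RPKM elsewhere, and il21r.1, an interleukin-21 receptor, had 7.14 RPKM and 0.27 to 1.95 RPKM elsewhere. Sh2d1ab (by position), an adaptor of lymphocyte receptors, was at 31.0 RPKM in LS_L_1 against at most 6.57 RPKM, and ackr4a, a scavenging receptor of chemokines, was at 3.89 RPKM against at most 0.682 RPKM. Klhl6, gab3, scimp and swap70b, which act in signalling of B cells, macrophages or antigen presenting cells in mammals, had ratios between 2.28 for gab3 and 4.12 for klhl6. The decoy receptor il22ra2 had the lowest ratio of the group after scaling, 1.66, and one of 2.23 by RPKM. Klhl6, gab3, scimp and il22ra2 were chosen after their values were seen.

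Chemokines were represented by ccl20b and cxcl19. Ccl20b had 38.1 RPKM in LS_L_1, and 6.41 and 8.12 RPKM in LS_L_2 and LS_L_3, against 6.28, 5.42 and 8.22 RPKM in the HS_L libraries, so that the other 5 pools were nearly level. The deposited transcript start row of ccl20b, in FPKM, went the other way, with 0 FPKM in LS_L_1, and 10.4 and 17.1 FPKM in LS_L_2 and LS_L_3, against 0, 7.21 and 0 FPKM in the HS_L libraries. It overlaps tlr22 by 95 bases on the opposite strand. Cxcl19, a chemokine of fish, showed 2 high libraries, with 98.2 RPKM in LS_L_1, and 2.57 and 3.02 RPKM in LS_L_2 and LS_L_3, against 46.0, 11.5 and 3.54 RPKM in the HS_L libraries. It was chosen after its values were seen. Nkl.4 (by position), an NK-lysin peptide that lyses microbial membranes, had 7.05 RPKM in LS_L_1 and 1.04 to 2.72 RPKM elsewhere.

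A mixed group of transcription factors, inflammatory feedback genes and kinases, with sox10 among them, held 13 members with a median ratio of 2.16. Of these, 4 kept a ratio of at least 2 after scaling. Spi1a, which encodes PU.1, had 32.3 RPKM in LS_L_1, and 7.35 and 6.97 RPKM in LS_L_2 and LS_L_3, against 14.0, 3.84 and 8.42 RPKM in the HS_L libraries. Klf6a, an immediate early factor, had 18.8 RPKM in LS_L_1 and 1.71 to 4.35 RPKM elsewhere. Nfkbiab, the inhibitor that NF-kappa-B induces to limit itself, had 91.6 RPKM in LS_L_1, and 24.0 and 21.6 RPKM in LS_L_2 and LS_L_3, against 36.7, 35.8 and 37.9 RPKM in the HS_L libraries. Outside LS_L_1 all HS_L pools were thus above both LS_L pools. The acute phase factor cebpb was among the members with the highest level, at 378.2 RPKM in LS_L_1 against 130.4 to 181.1 RPKM elsewhere, and its ratio was 2.09 by RPKM and 1.48 after scaling. Zc3h12aa (a ribonuclease that degrades cytokine transcripts), pim1 (a kinase induced by cytokines) and, by position, map3k14a (the NF-kappa-B inducing kinase) had ratios of 2.16, 2.57 and 2.05 by RPKM and of 1.86, 1.92 and 1.54 after scaling. These 3 genes were chosen after their values were seen.

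Granule, lysosome and proteasome genes numbered 8, with a summed level of 505.2 RPKM in LS_L_1, and 101.4 and 110.1 RPKM in LS_L_2 and LS_L_3, against 231.8, 85.8 and 122.4 RPKM in the HS_L libraries. Srgn (serglycin, the proteoglycan of leukocyte granules) was the most abundant of them, at 274.0 RPKM in LS_L_1, and 58.3 and 65.2 RPKM in LS_L_2 and LS_L_3, against 134.7, 50.7 and 60.3 RPKM in the HS_L libraries. The lysosomal protease ctsh and the proteasome subunit psmb12 stood at 88.6 and 39.0 RPKM in LS_L_1, with ratios of 2.44 and 2.20, and both were chosen after their values were seen.

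**Figure D3:**
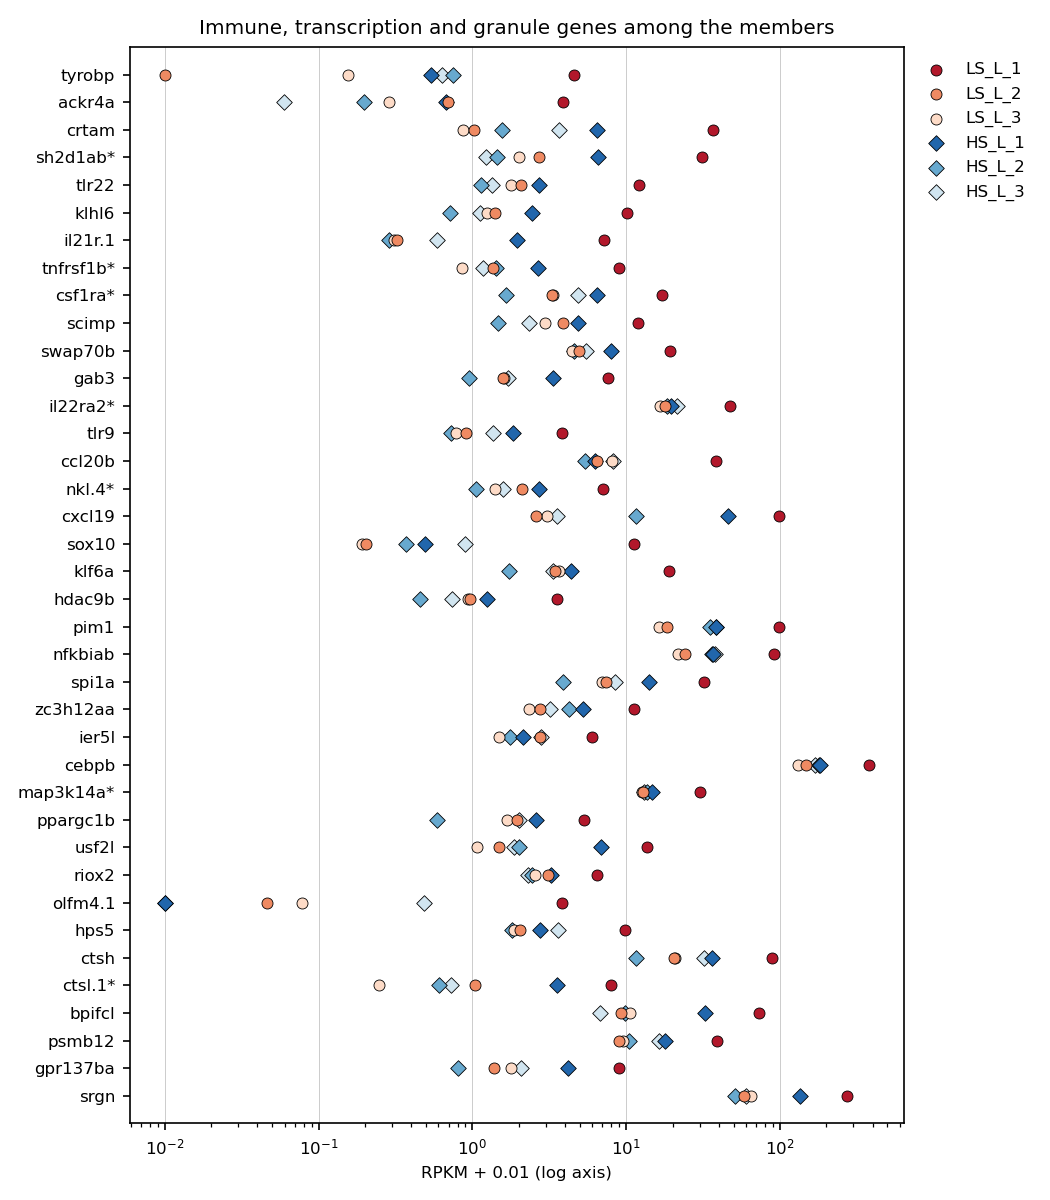
RPKM (plus 0.01, log axis) of the members grouped as leukocyte receptors and adaptors (tyrobp to tlr9), chemokines and antimicrobial peptides (ccl20b to cxcl19), transcription factors and feedback genes (sox10 to riox2), and granule, lysosome and proteasome genes (olfm4.1 to srgn), 1 point per library; an asterisk marks a name taken by position. HS_L_1 is the second highest library by RPKM for 11 of the 14 genes in the uppermost group. It is the highest of the 5 libraries other than LS_L_1 for 48.6% of all features tested.

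Genes linked to hormones, vasoactive peptides and growth factor binding formed a further group of 9 members with a median ratio of 2.94. Ccn2a (connective tissue growth factor, an immediate early matrix protein) had 37.4 RPKM in LS_L_1, and 1.67 and 1.61 RPKM in LS_L_2 and LS_L_3, against 9.50, 3.13 and 2.86 RPKM in the HS_L libraries. Fgf21, a liver hormone of fasting and stress, was low everywhere, at 3.83 RPKM in LS_L_1 and 0.24 to 1.31 RPKM elsewhere. The genes of the binding proteins of insulin-like growth factor, igfbp1a and igfbp3, lie 5423 bases apart on chromosome 2. Igfbp1a had 25.5 RPKM in LS_L_1, and 10.1 and 8.33 RPKM in LS_L_2 and LS_L_3, against 6.82, 0.720 and 6.45 RPKM in the HS_L libraries. All LS_L pools were above all HS_L pools for igfbp1a but not for igfbp3, which had 3.20 RPKM in LS_L_1 and its second highest level, 1.41 RPKM, in HS_L_1.

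Extracellular matrix genes (8 members) summed to 124.6 RPKM in LS_L_1, and 24.1 and 22.8 RPKM in LS_L_2 and LS_L_3, against 33.7, 27.0 and 24.0 RPKM in the HS_L libraries. Fbln1 (fibulin 1, a basement membrane glycoprotein) had 13.0 RPKM in LS_L_1 and 0.38 to 3.84 RPKM elsewhere. Lipid handling genes (6 members) had the highest summed level of the 9 groups, 883.8 RPKM in LS_L_1, and 291.1 and 264.7 RPKM in LS_L_2 and LS_L_3, against 239.8, 205.3 and 191.4 RPKM in the HS_L libraries. Pltp, which transfers phospholipids between lipoproteins, contributed 225.4 RPKM in LS_L_1, and 60.6 and 52.4 RPKM in LS_L_2 and LS_L_3, against 53.5, 22.6 and 11.0 RPKM in the HS_L libraries. Anxa4, a calcium-dependent phospholipid binding protein that also marks bile duct cells, contributed 392.7 RPKM in LS_L_1, and 172.1 and 159.1 RPKM in LS_L_2 and LS_L_3, against 105.6, 125.2 and 119.7 RPKM in the HS_L libraries. Ch25h, which makes the antiviral sterol 25-hydroxycholesterol, had 114.2 RPKM in LS_L_1, and 15.5 and 12.1 RPKM in LS_L_2 and LS_L_3, against 27.9, 30.4 and 31.6 RPKM in the HS_L libraries. As for nfkbiab, both remaining LS_L pools were the lowest. Enpp6, a choline-specific phosphodiesterase, was at 112.8 RPKM in LS_L_1 and 15.7 to 43.7 RPKM elsewhere. Genes of cilia and hair cells (7 members) and transporters (5 members) were also present, with median ratios of 3.69 and 2.34.

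Most of the 20 members with the highest level in LS_L_1 were known by a LOC number only. LOC103390006 (by position) was the highest, at 915.5 RPKM in LS_L_1, and 134.8 and 144.9 RPKM in LS_L_2 and LS_L_3, against 403.6, 171.9 and 205.7 RPKM in the HS_L libraries. Its ratio of 2.27 rested on 15486 reads in LS_L_1 and had a 95% interval of 2.20 to 2.34. LOC112487500 (by position) had 519.2 RPKM in LS_L_1 against at most 215.5 RPKM, in HS_L_2. LOC103388033 had 351.0 RPKM in LS_L_1 and 29.3 to 83.9 RPKM elsewhere, a ratio of 4.18. The others, LOC103383968, LOC103379927, LOC103378514, LOC103395798, LOC103380734, LOC103379925, LOC103377456 and LOC103398452, had ratios between 2.06 for LOC103379925 and 3.62 for LOC103398452. Of these, LOC103383968, LOC103395798 and LOC103380734 were named by position.

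The rule used the highest of the other 5 libraries, so a gene raised in one of them to a level near that in LS_L_1 could not become a member, and the order of these 5 is given as a description. HS_L_1 was the second highest library by RPKM for 117 of the 209 members (56.0%), against 48.6% of all features tested in which it was the highest of the 5. After scaling the shares were 33.5% of members and 20.2% of features. HS_L_2 was the lowest library for 97 members, LS_L_3 for 52, HS_L_3 for 36, LS_L_2 for 17 and HS_L_1 for 7. In 29 members HS_L_1 was itself at least 2 times the highest of the remaining 4 libraries (13.9%, against 5.15% of all features tested), and in 10 after scaling (4.78%, against 1.88%). LS_L_2 and LS_L_3 were close to each other. Their median absolute difference over the members was 0.17 on the log2 scale of scaled RPKM + 1, against 0.18 over all features tested, while LS_L_1 differed from LS_L_2 by a median of 1.49 over the members, a difference that the rule itself sets, against 0.36 over all features tested.

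The question of the study was how liver expression differs between the salinities. With all 6 libraries, limma on log2(scaled RPKM + 1) called 4 of 9343 features (0.0428%) and none of the 197 members that passed the minimum mean of 1 RPKM. A call required a log2 fold change (LS_L minus HS_L) beyond 1 and a Benjamini-Hochberg adjusted p below 0.05. At these thresholds the study reported far more genes with its count test. The test used here differs, and the cause of the gap was not tested. The 4 calls therefore do not measure how many genes differ between the salinities. Because LS_L_1 chose the members, these values describe the choice: the median log2 fold change was 0.45 over the 197 members and 0.03 over all features tested, 187 members were above 0, and 21 members (10.7%) had an unadjusted p under 0.05, against 6.57% of all features tested. limma-voom on recovered reads likewise called 0 members, and 23 (11.7%) had an unadjusted p under 0.05, against 6.19% of features. With the replicate number as a block no feature was called, and 44 members (22.3%) had such a p, against 8.49% of features. On RPKM as deposited the count was 13 members (6.60%, against 5.02% of features). Without HS_L_2 it was 10 (4.88%, against 6.35%), and without LS_L_2 it was 33 (16.3%, against 4.10%).

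Leaving LS_L_1 out gives a comparison of the salinities among 5 libraries that the rule treated alike. The rule still used their highest value, so a gene strongly raised in any of them was less likely to be a member. Of the 209 members, 173 passed the minimum mean of 1 RPKM over the 5 libraries and were tested, and 36 did not. limma called 17 of 9222 features (0.184%) and none of the 173 members. At an unadjusted p under 0.05 there were 22 members (12.7%), 11 with higher and 11 with lower values in LS_L, against 7.55% of all features tested, and with limma-voom there were 20 such members (11.6%, against 7.09%) and again 0 calls. This share depended on the scaling and on single libraries. On RPKM as deposited 11 members had such a p (6.36%, against 6.35% of features), and 2 members each without LS_L_2 (1.16%, against 2.69%) and without LS_L_3 (1.14%, against 2.24%), where 1 LS_L library was left and was assumed to vary like HS_L. The median log2 fold change was 0.03 over the members and 0.03 over all features, with quartiles of -0.22 and 0.27 over the members and of -0.19 and 0.24 over all features. With LS_L_1 left out, the members as a list were centred where all features were centred. This is a description, because the rule capped the values of these 5 libraries. With the replicate number as a block, 7 of the 9222 features and none of the members were called, and 28 members had an unadjusted p under 0.05 (16.2%, against 8.28% of features), 20 of them higher and 8 lower in LS_L. In this blocked fit HS_L_1 was alone in its block and added nothing to the contrast. That fit therefore set LS_L_2 and LS_L_3 against HS_L_2 and HS_L_3 only. P-values of the comparison without LS_L_1 measure the spread between tank pools, of which only 2 were left in LS_L.

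**Figure D4:**
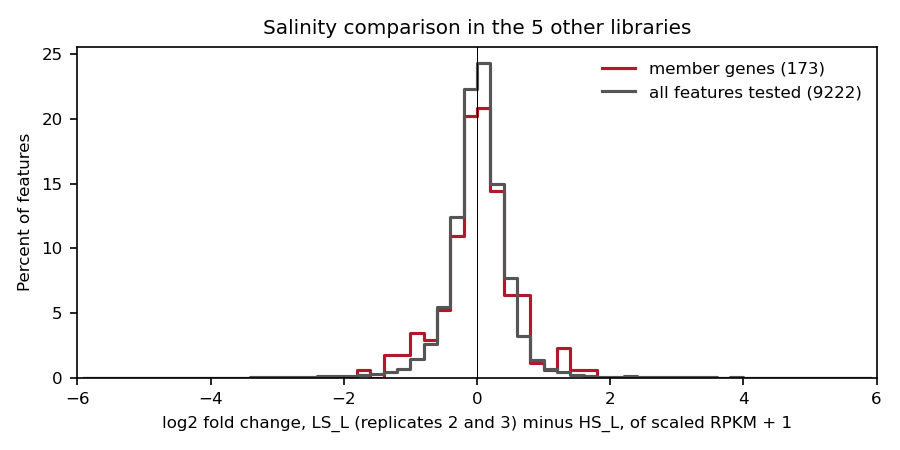
Distribution of the log2 fold change between LS_L (replicates 2 and 3) and HS_L in scaled RPKM + 1, as percent of features in bins of 0.2, for the 173 members tested (red) and all 9222 features tested (grey). Both medians are 0.03, and members range from -1.71 to 1.60.

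The lowest adjusted p of any member, 0.415 by limma, belonged to pim1. It had 18.4 and 16.2 RPKM in LS_L_2 and LS_L_3, against 38.4, 35.1 and 38.4 RPKM in HS_L_1, HS_L_2 and HS_L_3, or -0.89 (SE 0.22) as log2 fold change. In these 5 pools the groups did not overlap for pim1, while its 98.8 RPKM in LS_L_1 was above them all. Ch25h was alike, with a log2 fold change of -0.90 (SE 0.25, adjusted p = 0.460 by limma), and so were crtam at -1.08 (SE 0.37, adjusted p = 0.560) and ccn2a at -0.92 (SE 0.36, adjusted p = 0.627). For these 4 genes the 2 further LS_L pools lay below all HS_L pools. LS_L_1 lay above them, which the rule sets for every member. The 4 are among the 11 members with an unadjusted p under 0.05 by limma and lower values in LS_L. In all 11, LS_L_2 and LS_L_3 were below all HS_L pools by RPKM. Their order is therefore a description, and the share of all features with such an order was not counted. On the positive side were XM_008337141.1 at 1.54 (SE 0.46, adjusted p = 0.487), pltp at 1.38 (SE 0.52, adjusted p = 0.610) and fbln1 at 1.03 (SE 0.40, adjusted p = 0.613). None of these passed the threshold.

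Lists of marker genes for 14 cell types were compared between the libraries, because pooled tissue can hold different shares of cells. In such bulk samples, fewer cells of a type and less RNA per cell cannot be told apart. For macrophages and granulocytes 19 of 36 symbols were matched, and the 17 features tested include 3 members (spi1a, csf1ra and tyrobp). LS_L_1 was the highest library for 12 of the 17 by RPKM and by scaled RPKM, and the 3 members are among these by the rule. Over all features tested it was the highest for 42.9% by RPKM and 23.4% by scaled RPKM. The sums of the list include these members. The list summed to 3224 RPKM in LS_L_1, and 411.2 and 410.3 RPKM in LS_L_2 and LS_L_3, against 854.4, 174.3 and 367.8 RPKM in HS_L_1, HS_L_2 and HS_L_3. Lysozyme made up most of the sum, and without it LS_L_1 had 328.7 RPKM, and LS_L_2 and LS_L_3 had 95.6 and 99.7 RPKM, against 260.7, 76.5 and 100.5 RPKM in the HS_L libraries. On deposited RPKM, LS_L_1 and HS_L_1 were thus the 2 libraries with high levels of this list. Values of both tended to be higher across all features. After scaling the whole list summed to 2567 in LS_L_1, and 420.2 and 509.0 in LS_L_2 and LS_L_3. It then summed to 700.5, 197.2 and 392.7 in HS_L_1, HS_L_2 and HS_L_3. Not every marker had its peak in LS_L_1, since cybb, ncf4 and csf3r were highest in HS_L_1, and ptprc, mpeg1.1, fcer1g and mmp25b stayed under 1 RPKM in every library. The part of these cells in the result was not tested.

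The T and NK cell list (13 of 24 symbols matched) summed to 36.3 RPKM in LS_L_1, and 9.61 and 6.67 RPKM in LS_L_2 and LS_L_3. In the HS_L libraries it summed to 24.1, 8.20 and 10.6 RPKM. The member nkl.4 gave 7.05 RPKM of the sum in LS_L_1, and lck, cd8a and cd8b were under 1 RPKM throughout. The B and plasma cell list (7 of 17 matched) summed to 27.5 RPKM in LS_L_1, and 6.23 and 5.88 RPKM in LS_L_2 and LS_L_3, against 20.0, 6.45 and 6.90 RPKM in the HS_L libraries. Its receptor genes cd79a and cd79b were higher in HS_L_1 than in LS_L_1, and the member swap70b alone gave 19.3 RPKM of the sum in LS_L_1. The endothelium list had no member, and 163.2 RPKM in LS_L_1, and 72.9 and 61.5 RPKM in LS_L_2 and LS_L_3. In the HS_L libraries it had 112.8, 63.3 and 83.5 RPKM. After scaling its sum was 129.9 in LS_L_1, 92.5 in HS_L_1 and 89.2 in HS_L_3, so HS_L_1 hardly stood out.

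The hepatocyte list had its lowest sum in LS_L_1. Of 13 symbols 11 were matched, none was a member, and the sum was 73333 RPKM in LS_L_1, and 96596 and 98038 RPKM in LS_L_2 and LS_L_3, against 102049, 168120 and 117201 RPKM in the HS_L libraries. The list of exocrine pancreas, a tissue that lies within the liver of many fish, also had its lowest sum in LS_L_1, with 29.3 RPKM, and 123.3 and 114.7 RPKM in LS_L_2 and LS_L_3, against 974.8, 3831 and 89.1 RPKM in the HS_L libraries. The lists of red blood cell, skeletal muscle, intestine, ovary and egg, kidney tubule, and nervous and endocrine markers held no member, and the bile duct list and the stroma list held 1 each (anxa4 and fbln1).

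**Figure D5:**
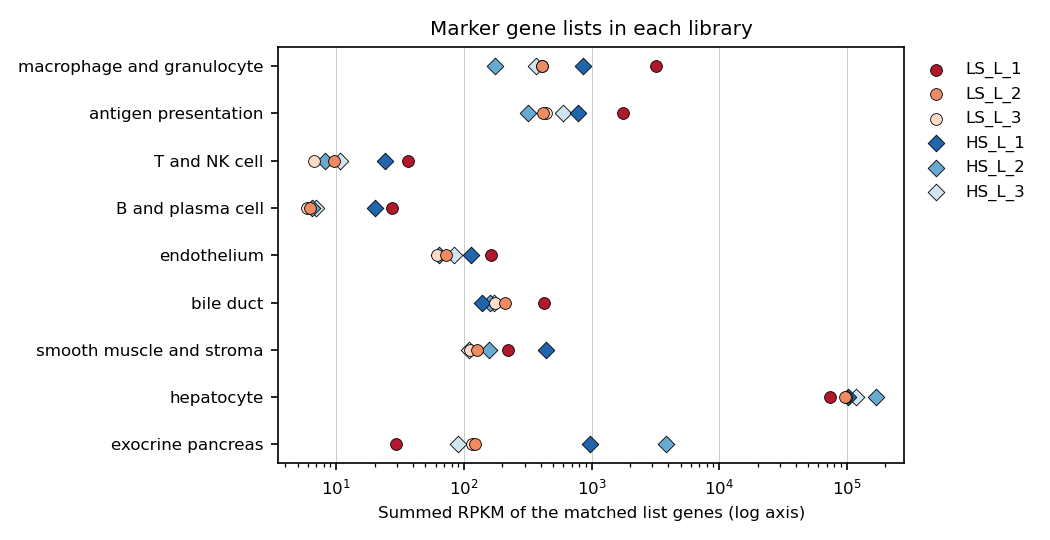
Summed RPKM as deposited, without scaling by size factors (log axis), of the matched genes of 9 gene lists in each library (circles, LS_L; diamonds, HS_L). LS_L_1 is highest for the macrophage and granulocyte list (3224 RPKM) and lowest for the hepatocyte list (73333 RPKM), and HS_L_1 is the second highest for the 5 uppermost lists.

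Over all features tested, 197 of 9343 were members, and LS_L_1 was the highest library for 42.9% by RPKM and 23.4% after scaling. Of the 21 pathway lists, the one of cytokines, chemokines and their receptors held 5 members of 22 features tested (ccl20b, il21r.1, nfkbiab, tlr9 and tnfrsf1b). LS_L_1 was the highest library for 13 of the 22 by RPKM and 11 after scaling, and the members are among these by the rule. The sum of this list was not highest in LS_L_1. It was 1433 RPKM in LS_L_1, and 1605 and 1678 RPKM in LS_L_2 and LS_L_3, against 1810, 891.5 and 1060.5 RPKM in the HS_L libraries. Among immediate early and stress kinase genes 2 of 27 were members (ccn2a and klf6a). LS_L_1 was the highest for 18 by RPKM and 9 after scaling, and these include the members by the rule. The list of insulin-like growth factor and growth hormone genes held 2 members of 18 (igfbp1a and igfbp3), and the acute phase list held 1 of 26 (cebpb), as did the list of unfolded protein response genes (fgf21, 1 of 37) and that of fasting and glucose output (igfbp1a, 1 of 18). No member fell in the lists of interferon response, antigen presentation, heat shock, cholesterol synthesis, glycolysis, ribosome, cell cycle or ion transport. In the interferon list LS_L_1 was the highest library for 10 of 18 features by RPKM and 7 after scaling, yet none reached 2 times the others. Antigen presentation had 3 of 4 features highest in LS_L_1 by both measures. Among them was cd74a, which the limit on the mean kept out. The ion transport list, which concerns salinity most directly, had LS_L_1 highest in 2 of 14 features by RPKM and in 1 after scaling.

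Members were found on all 20 autosomes and on unplaced scaffolds. Chromosomes 1, 6 and 15 held the most, with 21, 19 and 17 members (10.0%, 9.09% and 8.13% of members), against 7.40%, 5.02% and 4.02% of the XM features tested outside W and Z. Within 100000 bases of another member lay 52 members (24.9%), against 22.1% of the genes that peaked in HS_L_2 by the same rule, measured among themselves, and the difference was not tested. The share for as many features drawn at random was not counted. There were 29 neighbouring pairs, 16 of them under 10000 bases apart. On chromosome 6, tbc1d2b (by position), cib2, dnaja and LOC103379973 followed each other with gaps of 2405, 7951 and 2902 bases, and had ratios of 2.32, 3.97, 2.60 and 3.82. Cib2, a calcium binding protein of hair cells, was at 8.86 RPKM in LS_L_1 and 0.46 to 2.23 RPKM elsewhere. On chromosome 15, LOC103391003 lay 43332 bases from csf1ra on the same strand, with 68.9 RPKM in LS_L_1 against at most 12.2 RPKM, in HS_L_1. Tbc1d2b, cib2, dnaja and LOC103379973 were chosen for their positions after their values were seen. On their own strand 177 members overlapped no other feature, and 40 overlapped a feature on the other strand, where reads of the partners cannot be told apart without strand.

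The deposited files of transcript start and splice events give a second estimate from the same reads, in FPKM, which counts fragments and is scaled in the same way. Of the 209 members, 85 had a transcript start row in all 6 libraries, and 82 of these had an FPKM above 0 in some library. LS_L_1 was the highest for 69 of the 82, and at least 2 times the others for 63, while 6 were listed at 0 in LS_L_1. These 6 were ccl20b, cemip, sh2b2, cfap53 and, by position, dnaaf4 and dnaaf6, and all of them had an FPKM above 0 in other libraries. Cemip had 0 FPKM in LS_L_1, against 0.07 to 1.14 FPKM elsewhere. Sh2b2, cfap53, dnaaf4 and dnaaf6 were chosen after their values were seen. As the reads are the same, this is a check of the quantification and not a replicate.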

How the data were processed

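Per the labels and the methods of the study, the authors sequenced 6 liver libraries on the Illumina HiSeq platform, aligned the reads with TopHat2 and Bowtie2, discarded reads with more than 1 location and used HTSeq to count those that remained. They deposited RPKM values per library, which were used here for every comparison. The group columns were deposited by the authors as a signal, the mean of size-factor normalised read counts (DESeq), and served only to test the recovered reads, whose group means came within 0.1% of them for 99.98% of features. FPKM values of transcript events were deposited for each library. The authors' fold changes and p-values in the deposited table were not used. No deposited column was left without a sample. Whether reads were counted by strand is not given in the sources used here.

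Reads were recovered from RPKM, feature length and the step between values, and size factors were computed by the median of ratios. The test was limma 3.58.1 (R 4.3.3) with trend and robust settings on log2(scaled RPKM + 1), with a pseudocount of 1 RPKM, for features with a mean of at least 1 RPKM, with Benjamini-Hochberg adjustment over all features tested. Fold changes on this scale understate those of low genes. The study named a count test. Limma on log RPKM was used here in its place, although reads could be recovered, and limma-voom on those reads was run as an alternative. The scripts were tested on simulated data. Same-numbered libraries deviated together from their group means (correlations of 0.17, 0.16 and 0.23 over the features tested). Other-numbered libraries ranged from -0.46 (LS_L_3 with HS_L_1) to 0.22 (LS_L_3 with HS_L_2), with 0.17 for LS_L_2 and HS_L_1. No label says that the numbers mark pairs. The main fits had no block, and a fit with the replicate number as a block is given beside the counts of both salinity comparisons as an alternative. Names came from RefSeq (assembly Cse_v1.0, the build of the files), by accession or by an overlap of at least 0.5 of the feature. Members and gene lists were chosen with earlier results of these data known. Genes named are the 30 members with the highest ratio, the 20 with the highest level in LS_L_1, those in a gene list and any called, and others are marked as chosen after their values were seen. Alternatives were another scaling, filter, pseudocount, tool, pairing and each library left out.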

Additional observations from a re-analysis of the deposited data

How the results depend on the processing

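The number of members depended on the rule. It was 209 as stated, 127 on RPKM scaled by size factors, 703 with a ratio of at least 1.5, 76 with one of at least 3, 331 with a minimum of 1 RPKM, 118 with a minimum of 10 RPKM, and 177 for features that overlap no other on their strand. Set against all other libraries without HS_L_1, LS_L_1 had 618 such genes, and against LS_L_2 and LS_L_3 alone it had 1069, both chosen after seeing the data. The ratios of 38 of 61 named genes stayed within their counting interval after scaling and those of 23 became smaller than it. None could change direction, given the rule and the size factors. No member was called under any alternative of either salinity comparison. Over all features the comparison of 6 libraries called 4, and 7 with a filter of 10 reads per library, 10 on RPKM as deposited, 1 without a filter and 0 with the replicate block. Leaving out 1 library gave 0 to 17 calls (17 without LS_L_1, 2 without HS_L_2, and 0 without any of the other 4). Without LS_L_1 the count was 17, and 11 on RPKM as deposited, 11 without a filter and 7 with the replicate block, where HS_L_1 added nothing to the contrast. Leaving out a further library gave 0 to 28 (28 without HS_L_2, 8 without HS_L_1 or HS_L_3, and 0 without LS_L_2 or LS_L_3, where the single LS_L library left is assumed to vary like HS_L). The cause of these changes was not tested. Depth limits the low members most, since 25 of them had fewer than 100 reads in LS_L_1.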
